A study of Mus musculus with 13 samples.

Results

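The comparison set day 2 of a co-culture of stroma with blood progenitors against day 1 of the same co-culture. It used the 3 arrays whose titles give 48 h of co-culture and the 3 arrays whose titles give 24 h, so 6 of the 13 mouse arrays of the series. The stroma was UG26-1B6, a single clone of stromal cells from the urogenital ridge of a midgestation mouse embryo. Per the labels' protocols, confluent stroma was irradiated with 30 Gy before LSK cells were seeded on it, and the co-cultures stood at 33 °C. LSK cells are the lineage-negative, Sca-1 and c-Kit positive fraction of blood-forming tissue. The other groups served for orientation: 3 arrays of day 0 stroma that never met LSK cells, 2 arrays of stroma 24 h after a change of medium, and 2 arrays of co-culture day 3. The sources used here do not say if day 0 and medium control stroma was irradiated, or if the 2 cell types were parted before RNA was taken. Sample titles call the replicates biological and the design text calls them technical, so every p-value measures only the spread between these arrays.

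Stromal layers of this kind keep stem and progenitor cells alive in culture. They secrete factors such as Cxcl12 and Kit ligand, lay down collagens and other matrix, and send Wnt, TGF-beta and BMP signals. LSK cells placed on stroma can divide and mature, and early granulocyte and monocyte precursors then make large amounts of granule proteases and peroxidase. An RNA sample from such a well can therefore hold transcripts of both partners.

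The 3 arrays of day 2 were far less alike than the 3 arrays of day 1. Across the 12205 genes tested, the day 1 arrays correlated with each other at 0.986 to 0.990 (Pearson's r across genes, which are not independent replicates). Day 2 replicate 1 correlated at 0.730 with replicate 2 and at 0.709 with replicate 3, and its best match anywhere in the series was 0.785, with day 3 replicate 2. Replicate 3 of day 2 correlated at 0.987 with day 1 replicate 3 and at 0.925 with day 2 replicate 2. The median standard deviation of a gene was 0.22 log2 units on day 1, 0.91 on day 2, and 0.44 on day 2 without replicate 1. The signs of RNA quality set replicate 1 apart as well, and some of them replicate 2. The Gapdh 3' control signal of replicate 1 exceeded the 5' signal by 8.96 log2 units, against 2.39 to 3.50 on the day 1 arrays and 3.11 and 2.93 on day 2 replicates 2 and 3. For actin the same difference was 9.79, 4.16 and 2.48 on replicates 1, 2 and 3, against 2.43 to 3.13 on day 1, so replicate 2 exceeded the day 1 arrays here. Day 3 replicate 2 exceeded the day 1 arrays in both, with 5.79 for Gapdh and 6.67 for actin, while day 3 replicate 1 had 2.43 and 2.40. Of all values, 32.5%, 37.8% and 45.4% lay within 0.005 of the lowest value of the table on replicates 1, 2 and 3, against 43.6% to 44.6% on day 1. The spike-in RNA added at hybridisation averaged 13.5, 12.5 and 9.83 log2 units on day 2 replicates 1, 2 and 3, against 10.7 to 11.4 on day 1. The poly-A spike-in RNA averaged 14.4, 10.1 and 10.1 on the same arrays, against 10.5 to 12.4 on day 1. It averaged 12.0 and 14.1 on day 3, but only 4.63 to 8.55 on the day 0 and medium control arrays. Those arrays without LSK cells thus differed from all co-culture arrays in this control too. What part these differences play in the results was not tested. Each change below is given with all 13 arrays in the fit and again without day 2 replicate 1.

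A single gene passed the test in each fit. With all 13 arrays, limma called 1 of 12205 genes (0.00819%) at a Benjamini-Hochberg adjusted p under 0.05, and it was lower on day 2; no gene was called higher. Without day 2 replicate 1 it again called 1 gene, and that gene was higher on day 2. At an unadjusted p under 0.05 there were 239 genes higher and 1302 lower with all 13 arrays. The third smallest adjusted p was 0.378. The count turned on single arrays: without day 2 replicate 3, the array closest to day 1, limma called 288 genes higher (2.36%) and 1599 lower (13.1%), and without day 2 replicate 2 or any single day 1 array it called 0. Values are therefore given array by array, on the deposited log2 scale, where a difference of 1 is 2-fold and the lowest value any probe set took was 2.28. The verbs rise and fall are kept for the called genes.

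Wnt2, a secreted Wnt ligand, was the gene that fell. It stood at 5.19, 5.13 and 5.53 on day 1 and at 2.71, 2.77 and 3.57 on day 2. All 3 arrays of day 2 were below all 3 of day 1, and the level returned towards that of stroma without LSK cells, which was 2.67 to 2.76 on all 5 such arrays. On day 3 Wnt2 stood at 2.71 and 2.69. It fell by 2.27 ± 0.24 (standard error; adjusted p = 0.0431, limma, Benjamini-Hochberg) with all 13 arrays and was lower by 2.11 ± 0.23 without day 2 replicate 1, where the adjusted p was 0.058. The call was also lost without any single day 1 array (adjusted p = 0.298, 0.256 and 0.373 without replicates 1, 2 and 3) and without day 2 replicate 2 (0.183). Over 15 alternatives the adjusted p ran from 0.000146 to 0.709, and Wnt2 passed in 4 of them. Its standard error takes in the spread of all groups, among them day 3 and the 5 arrays without LSK cells, whose values lay close together. Of 29 measured genes of Wnt signalling, 3 had day 2 wholly below day 1 (Wnt2, Wnt5a and the Wnt5a receptor gene Ror2) and none had it wholly above, against 9.89% and 2.5% of all genes tested. For Wnt5a this depended on the probe set. The one used gave a change of −2.29, and of −0.53 without day 2 replicate 1. Other well-expressed Wnt5a probe sets gave −0.83 and −1.67, and −0.08 and 0.42 without that array.

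Chdh, which encodes choline dehydrogenase of the mitochondrion, was the gene that rose. It lay at or just above the lowest value on day 1 (2.30, 2.35 and 2.33) and on all 5 arrays without LSK cells (2.28 on each). It reached 6.93, 5.28 and 4.89 on day 2, and 5.57 and 5.12 on day 3. The arrays of day 2 and day 3 thus lay wholly above the rest. Because the day 1 values lay under the filter value of 2.38, the rise is a lower bound: at least 2.75 ± 0.17 log2 units without day 2 replicate 1 (adjusted p = 0.00131, limma), and at least 3.37 ± 0.43 with all 13 arrays, where it did not pass (adjusted p = 0.128). It passed in 13 of 14 alternatives to the fit without replicate 1. The standard error takes in the spread of all groups, among them the 5 arrays without LSK cells, which lay at the lowest value. Only the alternative limited to the 5 remaining co-culture arrays of days 1 and 2 left those arrays out. There the call was lost (adjusted p = 0.367, limma), so the tally does not show that the call holds without that shared spread.

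**Figure D1:**
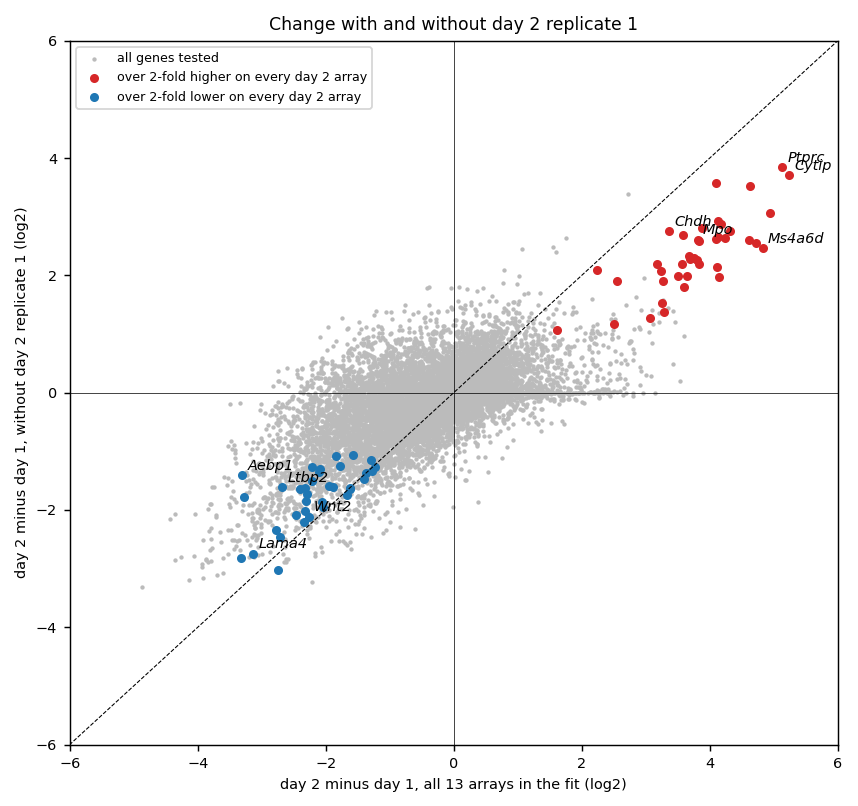
Change from day 1 to day 2 for each of 12205 genes (points), with all 13 arrays in the fit on the x axis and without day 2 replicate 1 on the y axis, both in log2 units; the dashed line marks equal values. Red points are the 40 genes over 2-fold higher and blue points the 35 genes over 2-fold lower on each day 2 array; the red points lie below the dashed line, with a median of 3.81 on the x axis and 2.32 on the y axis.

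A small set of genes stood well above day 1 on every day 2 array. On day 2, 305 genes (2.5% of those tested) had all 3 arrays above all 3 of day 1, and 40 of them (0.328%) stood over 2-fold above the day 1 mean on each array, or 64 (0.524%) on replicates 2 and 3 alone. These 40 were picked by their day 2 values and get no test, and their shares are given as a description beside those of all 12205 genes. Of them, 17 (42.5%) belonged to a blood cell list, against 0.655% of all genes. On all 5 arrays without LSK cells 30 lay below 4, against 20.3% of all genes, and 36 had both day 3 arrays above every day 1 array (90.0%, against 8.28%), a comparison that shares its day 1 arrays with the choice of the 40. Of these day 3 arrays, replicate 2 had the raised 3' to 5' differences given above. In bulk RNA, fewer cells of a type and less RNA per cell cannot be told apart, and the same holds for more. Replicate 1 was the highest day 2 array for all 40, and their median change was 3.81 with it and 2.32 without it.

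Of the 40, 6 were in the neutrophil granule list and 9 in the pan-leukocyte and macrophage list. Mpo encodes myeloperoxidase, which makes hypochlorous acid in the granule, and Prtn3, Ctsg and Elane encode its serine proteases proteinase 3, cathepsin G and neutrophil elastase. The promoters of the first 3 are shown because these genes stood higher together and because the motif GAGGAAG, a core recognised by the myeloid factor PU.1, occurs in each. They are RefSeq sequences on GRCm38.p6, mostly before the start of the gene and in small part after it, 5' to 3' on the gene's strand, with the motif in capitals: Mpo at chr11:87793534-87793833 on the plus strand, Prtn3 at chr10:79879417-79879716 on the plus strand and Ctsg at chr14:56102525-56102824 on the minus strand.
Mpo: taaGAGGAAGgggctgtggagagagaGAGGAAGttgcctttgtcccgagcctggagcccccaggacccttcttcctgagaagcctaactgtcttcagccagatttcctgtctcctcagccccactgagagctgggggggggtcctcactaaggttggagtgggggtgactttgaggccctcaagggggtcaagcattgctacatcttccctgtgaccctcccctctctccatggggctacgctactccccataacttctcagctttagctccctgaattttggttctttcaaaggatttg
Prtn3: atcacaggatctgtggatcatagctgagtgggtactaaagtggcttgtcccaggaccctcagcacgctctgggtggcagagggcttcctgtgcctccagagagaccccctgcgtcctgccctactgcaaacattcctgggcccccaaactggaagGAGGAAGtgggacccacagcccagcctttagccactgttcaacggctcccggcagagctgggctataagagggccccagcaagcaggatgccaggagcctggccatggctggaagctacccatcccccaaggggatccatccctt
Ctsg: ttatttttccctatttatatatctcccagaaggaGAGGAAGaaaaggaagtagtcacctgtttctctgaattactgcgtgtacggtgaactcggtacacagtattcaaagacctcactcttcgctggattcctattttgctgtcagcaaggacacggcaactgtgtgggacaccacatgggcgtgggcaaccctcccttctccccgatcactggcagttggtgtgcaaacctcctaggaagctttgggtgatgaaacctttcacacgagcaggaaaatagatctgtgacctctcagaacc

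The motif was 1 of 6 searched, each on both strands. Mpo held 2 matches and Prtn3 and Ctsg held 1 each. Of all 32851 promoters of this length, 13.6% held it; among the 40 promoters listed for 30 of the 40 genes above, 13 did (32.5%), and among the 34 promoters of the genes over 2-fold lower, 5 did (14.7%). For NF-Y (CCAAT) the shares were 25.0% and 35.3% of these 2 sets against 37.4% of all promoters. For AGATAA, recognised by GATA factors, they were 15.0% and 2.94% against 11.2%, and for TEAD (GGAATG) 12.5% and 23.5% against 14.7%. For AP-1 (TGACTCA) they were 7.5% and 2.94% against 5.2%, and for E2F (TTCGCGC and, as a variant, TTGGCGC) 0 and 5.88% against 3.89%. Some genes have several promoters that overlap, and a match is no evidence of binding. The Elane promoter, at chr10:79886062-79886361, also held 1 match.

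Mpo stood at 3.53 on all 5 arrays without LSK cells and at 5.61, 6.33 and 6.50 on day 1. On day 2 it reached 12.36, 8.54 and 8.96, and on day 3 9.86 and 10.70. Its change was 3.81 ± 0.83 (adjusted p = 0.378) with all 13 arrays and 2.61 ± 0.31 (0.058, limma) without day 2 replicate 1. Every co-culture array of day 2 and day 3 lay above every day 1 array, so day 1 was the lowest of the 3 days with and without the deviating array. Day 2 replicates 2 and 3 lay below both day 3 arrays, while replicate 1 lay above both.

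Prtn3 stood at 5.99, 5.83 and 5.99 on day 1 and at 12.61, 7.79 and 8.68 on day 2. Ctsg stood at 7.06, 7.84 and 7.77 on day 1 and at 13.14, 9.33 and 9.92 on day 2. Both were already well above stroma without LSK cells on day 1, where Prtn3 had not exceeded 3.37 and Ctsg had not exceeded 3.19. Ms4a3, a membrane protein of granulocyte and monocyte precursors, was at 2.34, 2.34 and 2.46 on day 1 and at 9.85, 5.00 and 5.02 on day 2, so it first left its low level on day 2. Chil3, a chitinase-like protein of myeloid cells, spread widely on day 1 (3.97, 8.92 and 7.58) and reached 13.67, 11.15 and 9.55.

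S100a9, Ngp and Elane stood high on replicate 1 alone. S100a9 and Ngp, which encode a calprotectin subunit and a neutrophilic granule protein, were at 2.28 on every day 1 array and again on day 2 replicates 2 and 3, while day 2 replicate 1 gave 11.74 for S100a9 and 8.81 for Ngp. Elane was likewise at 2.28 on all arrays of day 1 and on replicates 2 and 3 of day 2, with 5.97 on replicate 1. Their changes of 3.15, 2.18 and 1.23 with all 13 arrays were 0.00 for each without that array. Of 21 genes in the neutrophil granule list, 16 passed the filter, 4 of them through day 2 alone, so no test was made over them. With no call among them, 8 had all day 2 arrays above day 1 and none had them below, against 2.5% and 9.89% of all genes. Their median difference from the day 1 mean was 5.90 on replicate 1, 0.16 on replicate 2 and 0.57 on replicate 3, beside −0.32, −0.13 and 0.00 for all genes. The count and these medians run over all 16, among them the 4 that entered through day 2. Both are therefore no support for a change.

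Several genes found across white blood cells also stood lower on day 1 than on day 2. Ptprc, which encodes CD45, was at 2.28 on all 5 arrays without LSK cells, at 2.84, 4.13 and 2.69 on day 1, and at 10.93, 7.20 and 6.94 on day 2. Day 3 gave 5.34 and 9.18, so day 2 replicates 2 and 3 lay inside the day 3 range. Its change was 5.13 ± 1.15 (adjusted p = 0.378) with all 13 arrays and 3.85 ± 0.93 (0.548, limma) without day 2 replicate 1.

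Tyrobp, a signalling adaptor of myeloid receptors, was at 4.24, 6.38 and 6.39 on day 1 and at 12.70, 8.80 and 7.77 on day 2. Cd53, a leukocyte tetraspanin, was at 2.37, 4.33 and 3.11 and then at 10.69, 6.79 and 5.25. Mpeg1, the macrophage gene of perforin-2, was at 2.28, 6.52 and 4.93 and then at 9.72, 8.37 and 7.94. For these 3 genes the arrays of the days did not overlap, and for Mpeg1 the day 1 arrays spanned more than the day 2 arrays.

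Of 34 genes in the pan-leukocyte and macrophage list, 29 passed the filter, 4 through day 2 alone. None was called. All day 2 arrays lay above day 1 in 14 (48.3%, against 2.5% of all genes) and below it in none, against 9.89%. The count runs over all 29, among them the 4 that entered through day 2, so it is no support for a change. Their median change was 2.47 with all 13 arrays and 0.92 without day 2 replicate 1, beside −0.19 and −0.05 for all genes, and is no support for a change, since it includes the members that entered through day 2. Cd68, a lysosomal protein of macrophages, was no part of this: it stood at 4.84, 6.08 and 5.55 on day 1 and at 5.22, 4.62 and 6.26 on day 2. Cybb, the catalytic subunit of the phagocyte oxidase, was at 2.28 on all day 1 arrays and at 8.84, 2.28 and 2.30 on day 2.

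Further genes of the 40 are given with their known roles, as single genes and not as a group. Trem3, a triggering receptor of myeloid cells, was at 2.36, 3.09 and 2.57 on day 1 and at 8.69, 5.85 and 5.12 on day 2. Csf2rb, the shared receptor chain for GM-CSF and IL-3, was at 2.33, 2.78 and 2.35 and then at 8.80, 5.67 and 3.69. Fcgr3, an Fc receptor for IgG, was at 2.35, 3.56 and 2.54 and then at 9.36, 5.38 and 4.23. All 3 receptor genes lay at 2.37 or lower on the arrays without LSK cells, and their day 2 arrays did not overlap with day 1.

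Srgn, the proteoglycan core that packs granule proteins, was at 4.69, 6.49 and 5.16 on day 1 and at 12.23, 8.44 and 8.22 on day 2. Alox5ap, which hands arachidonic acid to 5-lipoxygenase for leukotriene synthesis, was at 3.16, 6.41 and 4.33 and then at 11.12, 7.16 and 6.69. Ms4a6d, a membrane protein of myeloid cells, was at 2.64, 2.81 and 2.65 and then at 12.25, 4.82 and 5.51; its change was 4.83 ± 1.55 (adjusted p = 0.378) and 2.47 ± 0.28 (0.058, limma) without day 2 replicate 1. Cytip, a leukocyte regulator of cell adhesion, had the largest change of the 40 with all 13 arrays, 5.24 ± 1.53 (adjusted p = 0.378), from 2.68, 7.06 and 4.72 on day 1 to 13.13, 9.89 and 7.15 on day 2. Tmem68, at 8.29 to 9.29 on day 0, was one of the few that stroma without LSK cells also held at a high level; it stood at 5.74, 7.09 and 6.51 on day 1 and at 9.14, 7.48 and 7.57 on day 2.

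Among genes of stem and progenitor cells, Kit, the receptor that defines LSK cells, did not pass the filter, and neither did Flt3. Myb, a transcription factor of progenitors, was at 2.54, 2.88 and 2.54 on day 1 and at 11.29, 5.39 and 5.12 on day 2; a second Myb probe set gave a change of 2.96 in place of 4.61, and of 0.79 in place of 2.60 without replicate 1. Lmo2, a partner of blood-forming transcription complexes, was at 2.72, 2.65 and 2.60 and then at 7.80, 5.84 and 3.87. Cd34 was at 2.44, 2.44 and 2.36 on day 1 and stood above that only on replicate 1 of day 2 by any margin (7.75, 2.45 and 2.49). Of 20 measured genes of this list, 4 had day 2 wholly above day 1 (20.0%, against 2.5% of all genes) and none below, against 9.89%. Among the 20, 2 passed the filter only through day 2, so the count is no support for a change. The list's mean level was 4.58 to 4.63 on day 1 and 6.52, 4.83 and 5.00 on day 2 replicates 1, 2 and 3, and 4.79 to 5.00 on day 0, so replicates 2 and 3 lay within the range of stroma that never met LSK cells.

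Of 8 measured erythroid and megakaryocyte genes, 7 stood above the day 1 range on replicate 1 and 2 on each of replicates 2 and 3. Among the 8, 2 passed the filter only through day 2, which favours higher values there. The counts and medians of this list are therefore no support for a change. The median difference from day 1 was 5.69, −0.06 and −0.01 on replicates 1, 2 and 3. Nfe2, a transcription factor of megakaryocytes, was the 1 member with day 2 wholly above day 1 (12.5%, against 2.5% of all genes), from 2.28 on each day 1 array to 9.91, 2.29 and 2.29, so replicates 2 and 3 lay next to the lowest value. Pf4, platelet factor 4, was at 6.17, 4.26 and 4.14 on day 1 and at 12.34, 3.74 and 8.75 on day 2, and overlapped. Of 4 measured mast cell and basophil genes, 2 passed the filter only through day 2, and the median difference over the 4 was 1.17, 0.00 and −0.41. Hdc, which makes histamine, was at 2.31 on each day 1 array and at 6.55, 2.32 and 2.31 on day 2, and Cpa3, a mast cell protease, at 2.28 and then at 4.87, 2.28 and 2.60. Mcpt8, a basophil protease, was the 1 member wholly below day 1, with 5.52, 3.97 and 3.18 on day 1 and 3.06, 3.06 and 2.71 on day 2, though day 0 replicate 2 gave 8.17 with no LSK cells present.

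**Figure D2:**
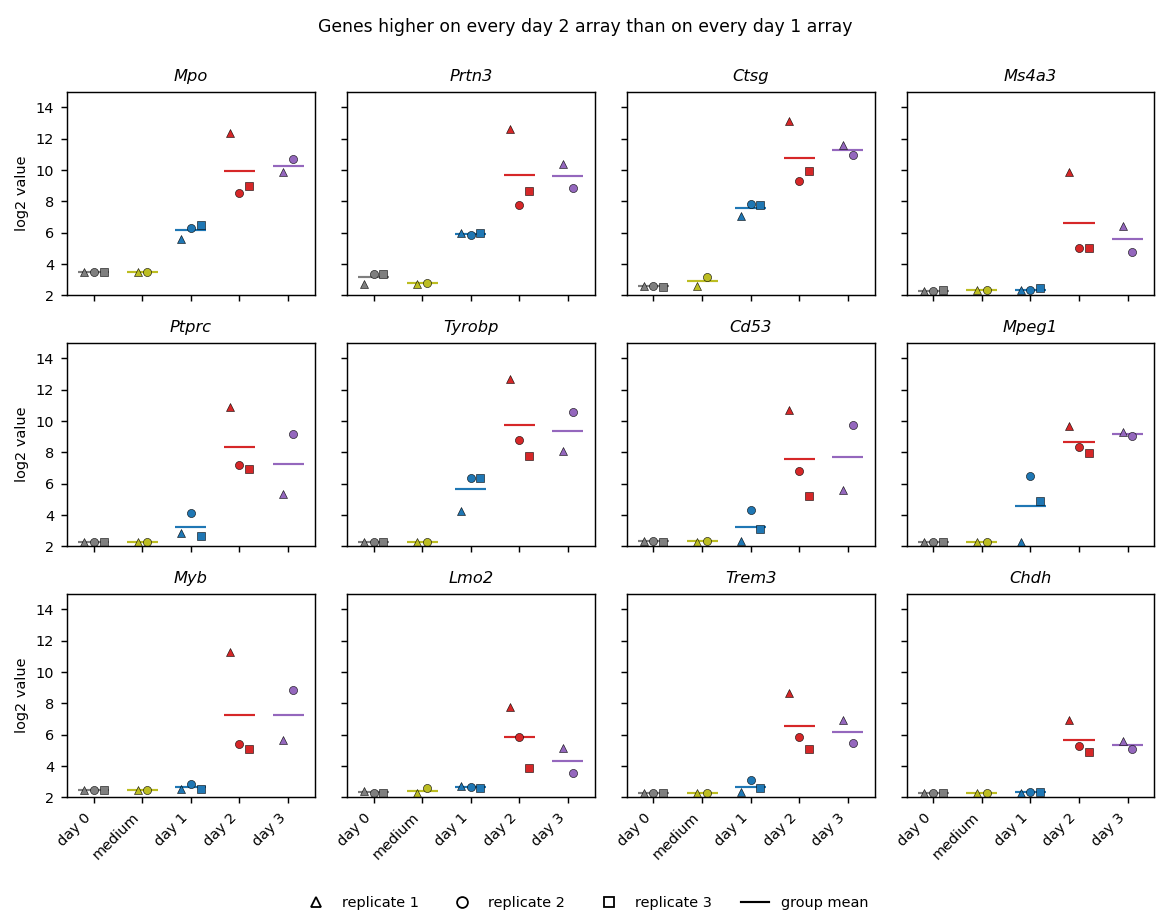
Deposited log2 value (y axis) of 12 genes in the 5 groups (x axis: day 0 stroma, stroma 24 h after a medium change, and co-culture days 1, 2 and 3); each symbol is 1 array, its shape gives the replicate number and the bar is the group mean. Day 2 replicate 1 (red triangle) is the highest day 2 array in every panel, and replicates 2 and 3 also lie above all 3 day 1 arrays, for Ptprc at 7.20 and 6.94 against at most 4.13.

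On the deposited scale more genes lay wholly below day 1 than wholly above it. Of the 12205 genes, 1207 (9.89%) had all day 2 arrays below all day 1 arrays, and 35 (0.287%) stood over 2-fold below the day 1 mean on each, or 42 (0.344%) on replicates 2 and 3 alone. Replicate 1 had 4642 genes over 2-fold below the day 1 mean, replicate 2 had 2778 and replicate 3 had 100. The 35 genes, again picked after their values were seen, had a median change of −2.21 with all 13 arrays and −1.63 without day 2 replicate 1. In 21 of them (60.0%, against 14.1% of all genes) every day 1 array had stood above all 5 arrays without LSK cells. The choice of genes high on day 1 favours this. That share was 55.0% among the 40 genes over 2-fold higher, so it is not particular to the 35. In 10 of those 21 no day 2 array exceeded the highest of those 5. Both day 3 arrays lay below every day 1 array in 17 of the 35, a comparison that shares its day 1 arrays with the choice. The matching share of all genes was not taken.

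Tubb3, a tubulin best known from neurons, was at 7.01, 7.04 and 6.55 on day 1 and at 4.27, 4.27 and 5.06 on day 2, where day 0 and medium control arrays had lain at 4.27 to 5.01. Gadd45b, a stress-response gene, was at 10.91, 10.86 and 10.56 and then at 7.56, 8.24 and 9.63. A second well-expressed Gadd45b probe set gave −2.45 in place of −2.30, but −0.48 in place of −1.84 without replicate 1. Timp1, an inhibitor of matrix metalloproteinases, was at 11.72, 11.39 and 11.52 and then at 8.71, 10.16 and 10.44. For all 3 genes the days did not overlap, and day 3 lay between them for Gadd45b (9.92 and 9.96) and Timp1 (10.75 and 11.35).

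Among the genes for collagens and the enzymes that modify them, 13 of 32 measured had day 2 wholly below day 1 (40.6%, against 9.89% of all genes) and none wholly above. Col4a2, a chain of basement membrane collagen, was at 9.25, 9.02 and 8.74 on day 1 and at 6.59, 7.51 and 7.28 on day 2, a change of −1.88 ± 0.41 (adjusted p = 0.378) and of −1.61 ± 0.42 (0.548, limma) without day 2 replicate 1. Col4a1, its partner chain, was at 11.20, 11.09 and 10.97 and then at 9.40, 8.49 and 10.47. Col1a1, a chain of the main fibrillar collagen, was at 9.64, 8.55 and 8.70 and then at 6.43, 7.58 and 8.02. In each of these the groups did not overlap. Col5a1 did overlap, with 11.81, 11.23 and 10.92 against 9.39, 11.36 and 11.05.

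None of these 32 genes was called. Their median change was −1.62 with all 13 arrays and −1.01 without day 2 replicate 1, and stayed negative after quantile scaling (−1.15) and centring (−0.99). By array the median was −2.31, −1.62 and −0.27. Among the modifying enzymes, Bmp1, which trims procollagen, was at 9.36, 9.18 and 9.01 on day 1 and at 6.29, 4.55 and 8.78 on day 2. Loxl1, a cross-linking oxidase, was at 9.83, 9.10 and 9.64 and then at 4.82, 7.03 and 9.36, which overlapped.

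Other matrix genes included Ltbp2, a microfibril protein, at 9.14, 9.44 and 9.03 on day 1 and at 4.38, 7.34 and 7.84 on day 2. Its change was −2.69 ± 0.73 (adjusted p = 0.378) and −1.62 ± 0.23 (0.149, limma) without day 2 replicate 1. Fbln2, a fibulin of elastic fibres, was at 9.89, 10.54 and 9.67 and then at 3.77, 7.74 and 8.77; its second probe set gave a change of −1.33, and of 0.29 without replicate 1. Lama4, a laminin chain, was at 8.16, 6.92 and 6.19 and then at 3.19, 2.99 and 5.70. Gpc1, a cell surface proteoglycan, was at 8.16, 8.35 and 8.27 and then at 4.36, 6.10 and 7.12.

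Of 31 measured genes for matricellular proteins and proteoglycans, 9 had day 2 wholly below day 1 (29.0%, against 9.89% of all genes) and 1 had it wholly above (3.23%, against 2.5%). That one was Tgfbi, a secreted matrix protein, at 5.69, 7.27 and 5.08 on day 1 and at 13.20, 8.10 and 7.54 on day 2. Their median change was −1.13 with all 13 arrays and −0.48 without day 2 replicate 1. The median by array was −2.84, −0.98 and −0.20, so the third array again stood close to day 1.

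General markers of stroma differed in the same arrays. Vim, the intermediate filament of mesenchymal cells, stood at 13.22, 11.52 and 12.69 against 12.27, 12.35 and 12.45 on day 1. It lay above the day 1 range on replicates 1 and 3 and below it on replicate 2. Sparc stood at 8.95, 11.16 and 12.24 against 12.72, 12.19 and 12.07. The mean level of the stromal identity list was 7.34 to 8.03 on day 1 and 5.52, 6.50 and 7.57 on day 2, and 5 of its 20 measured genes had day 2 wholly below day 1 (25.0%, against 9.89% of all genes). Its median difference from day 1 was −2.53, −1.27 and −0.04 on replicates 1, 2 and 3. Thy1, Fap and Lum did not pass the filter and Dcn lay at 2.37 to 2.78 on the 6 arrays. On the same arrays the mean level of the neutrophil granule list was 3.58 to 4.07 on day 1 and 8.01, 4.63 and 4.74 on day 2, against 2.65 to 2.90 on the 5 arrays without LSK cells. That of the pan-leukocyte and macrophage list was 3.69 to 4.61 on day 1 and 8.57, 4.81 and 5.13 on day 2, against 3.33 to 3.51. What part blood cell RNA, or the scaling and quality of the arrays, plays in the lower stromal values was not tested.

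**Figure D3:**
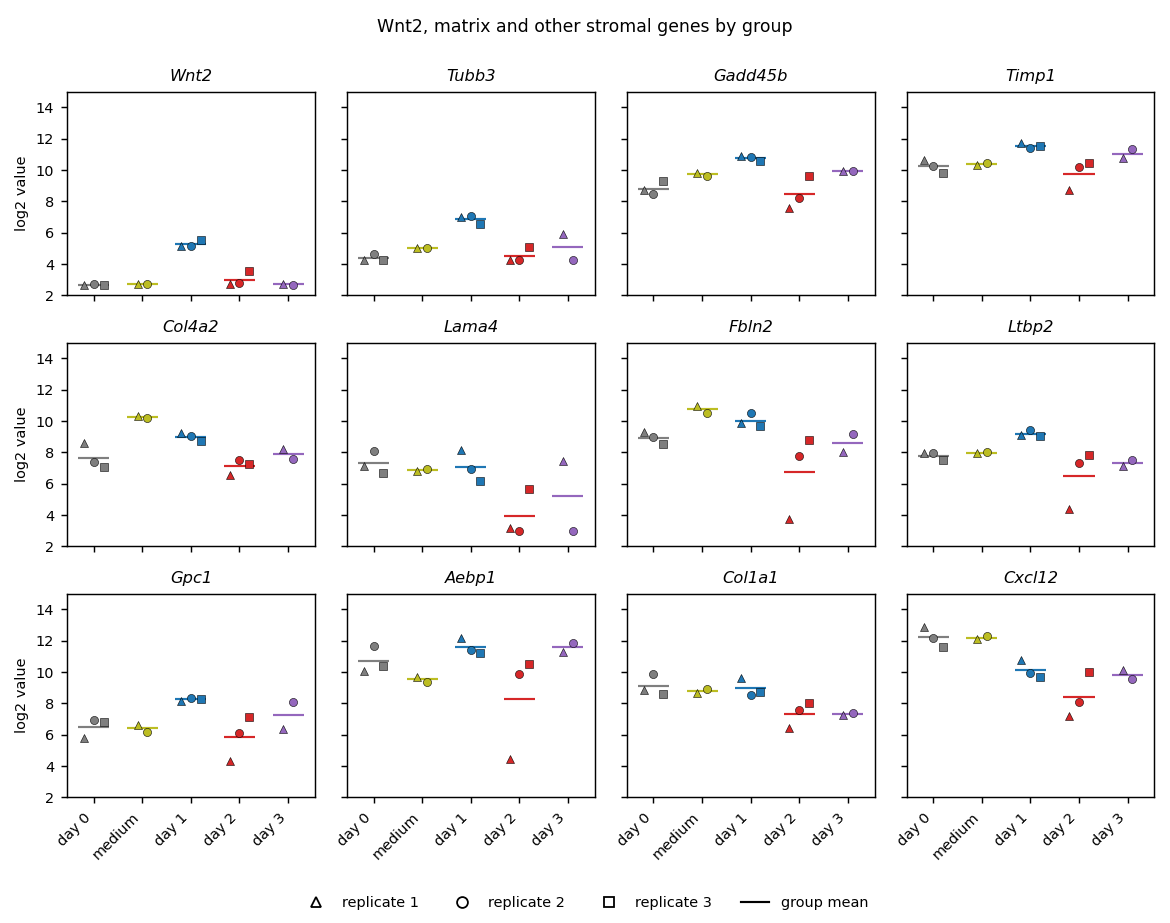
Deposited log2 value (y axis) of 12 genes in the 5 groups (x axis as labelled), with 1 symbol per array, its shape giving the replicate number, and a bar for the group mean. Wnt2 stands at 5.13 to 5.53 on day 1 and at most at 3.57 elsewhere; for Ltbp2, Fbln2, Gpc1 and Aebp1 day 2 replicate 1 (red triangle) is the lowest array of the panel.

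Niche factors were mixed. Cxcl12, the chemokine that holds progenitors in their niche, was at 10.77, 9.94 and 9.67 on day 1 and at 7.20, 8.11 and 10.00 on day 2, so replicate 3 lay within the day 1 range. A second well-expressed Cxcl12 probe set gave a change of −3.28 in place of −1.69, and of −1.89 in place of −1.07 without day 2 replicate 1. Kitl, which encodes Kit ligand, was at 10.66, 9.42 and 9.56 and then at 3.57, 10.46 and 10.66, a change of −1.65 with all 13 arrays and of 0.68 without day 2 replicate 1 (adjusted p = 0.597 and 0.683, limma). Vcam1, an adhesion molecule, was at 8.68, 8.32 and 8.08 and then at 4.22, 7.46 and 8.68. Of 26 measured niche genes, 5 had day 2 wholly below day 1 (Lif, Igf1, Igfbp2, Tnc and Vegfc; 19.2%, against 9.89% of all genes). Il7, between 2.28 and 2.90 throughout, was the 1 wholly above (3.85%, against 2.5%). Among the 26, 2 passed the filter only through day 2.

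By median, the lists of CCN and YAP, p53, and TGF-beta and BMP genes stood farther from day 1 on replicate 1 than on replicates 2 and 3. Ccn2, a matricellular target of TGF-beta and YAP, was at 13.46, 14.17 and 13.86 on day 1 and at 10.92, 13.14 and 13.73 on day 2. Sfrp1, a secreted Wnt antagonist, was at 11.70, 9.58 and 9.45 and then at 4.35, 4.47 and 10.29, so replicate 3 again stood apart from the other two. Wnt5a was at 9.28, 9.72 and 9.37 and then at 3.63, 8.64 and 9.22. Of 27 measured genes of the CCN family and YAP targets, 4 had day 2 wholly below day 1 (14.8%, against 9.89% of all genes), and the median by array was −3.97, −0.65 and 0.00. For p53 targets it was −2.86, −0.62 and 0.01, with 7 of 37 wholly below (18.9%, against 9.89% of all genes). For TGF-beta and BMP signalling it was −2.81, −0.58 and 0.01, with only 1 of 30 wholly below (3.33%, against 9.89% of all genes). Cdkn1a, the cell cycle inhibitor p21, was at 13.51, 13.83 and 13.73 and then at 10.83, 13.74 and 13.40. A second well-expressed Cdkn1a probe set gave a change of −4.18 in place of −1.04, and of −2.01 in place of −0.12 without replicate 1.

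Ribosome biogenesis had a median below day 1 on all 3 day 2 arrays, though single genes spread more on replicate 1. The median over 49 genes was −0.43, −0.68 and −0.48 on replicates 1, 2 and 3, beside −0.32, −0.13 and 0.00 for all genes, and 12 genes had day 2 wholly below day 1 (24.5%, against 9.89% of all genes) and none wholly above. On replicates 1, 2 and 3, 23, 29 and 30 genes lay below the day 1 range and 16, 9 and 4 above it. The median change was −0.42 with all 13 arrays and −0.54 without day 2 replicate 1. With all 13 arrays it was −0.15 after quantile scaling and turned to 0.21 after centring, where the median of all genes moved from −0.19 to 0.43 (and to −0.05 after quantile scaling). Without replicate 1 it stayed negative under both, at −0.45 and −0.34.

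Among its genes, Polr1b, a subunit of RNA polymerase I, was at 6.51, 5.96 and 6.28 on day 1 and at 3.92, 2.64 and 5.59 on day 2. Nop16, a nucleolar protein, was at 9.39, 9.64 and 9.90 and then at 4.56, 5.00 and 8.78. Srm, spermidine synthase, was at 10.97, 11.11 and 11.35 and then at 10.25, 9.74 and 10.29, with the 3 day 2 arrays close together. Nop56, a small nucleolar RNP protein, did not share this and stood at 11.07, 11.77 and 11.33 against 12.38, 11.19 and 10.58.

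Genes of mitosis stood above day 1 mainly on replicate 1. Mki67, the proliferation antigen Ki-67, was at 5.90, 6.65 and 3.57 on day 1 and at 12.68, 4.54 and 6.17 on day 2. Of 47 measured genes of mitosis and spindle, none had day 2 wholly above or below day 1. The median difference was 2.40 on replicate 1, 0.01 on replicate 2 and 0.00 on replicate 3. Above the day 1 range lay 37, 10 and 6 of them. For 43 genes of DNA replication the median was 0.46, −0.24 and −0.31, and 3 (Gins4, Pold2 and Chaf1b) had day 2 wholly below day 1 and 1 (Prim2) wholly above, or 6.98% and 2.33%, near the 9.89% and 2.5% of all genes. Tk1, the thymidine kinase of dividing cells, was at 7.84, 6.66 and 5.00 on day 1 and at 3.96, 2.76 and 5.68 on day 2; its change was −2.37 with all 13 arrays and −2.28 without day 2 replicate 1, and replicate 3 overlapped with day 1. Cdk4, a kinase of the G1 phase, did not overlap: it was at 12.40, 12.26 and 12.10 on day 1 and at 11.20, 10.73 and 11.39 on day 2, a change of −1.14 ± 0.22 (adjusted p = 0.378, limma) and of −1.19 ± 0.23 (0.46) without day 2 replicate 1.

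**Figure D4:**
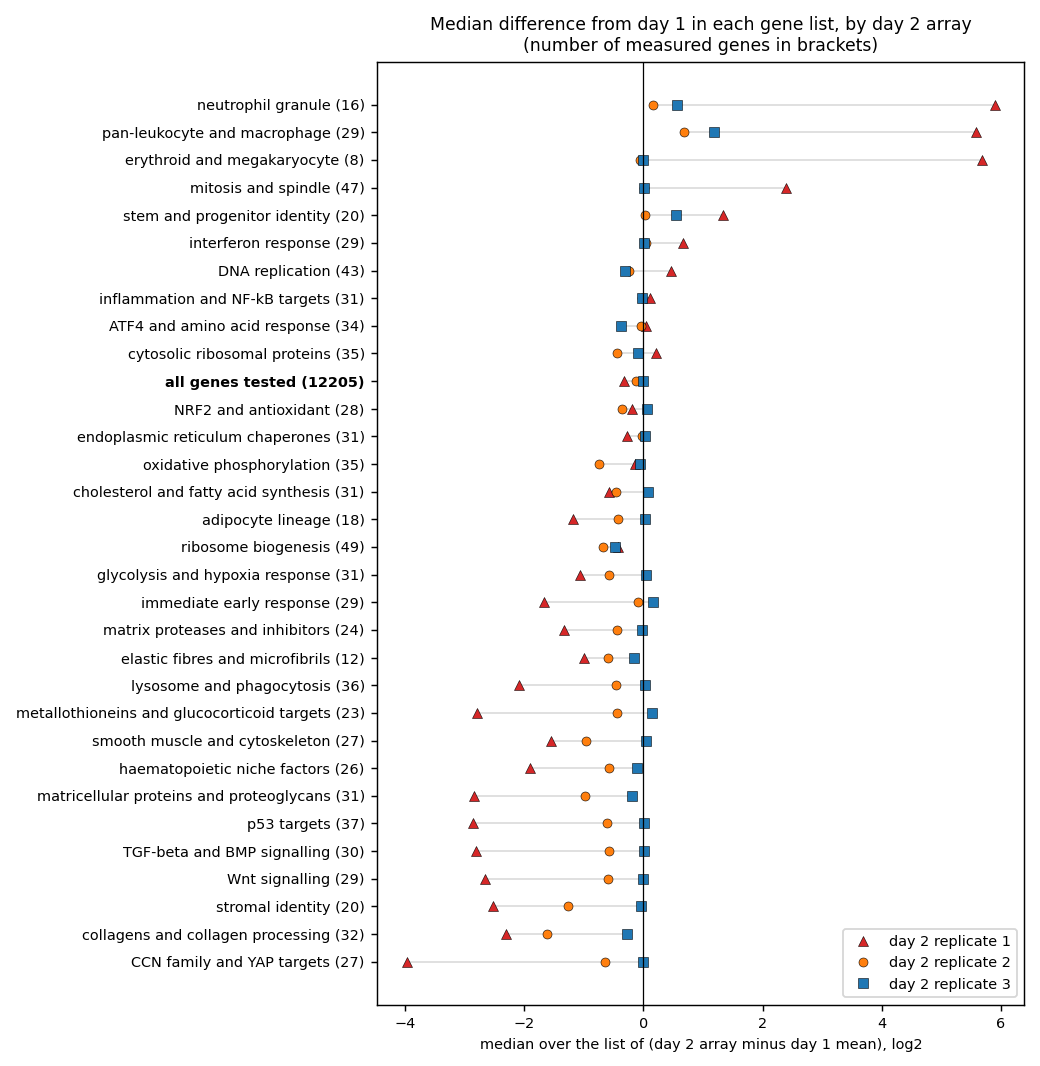
Median, over the measured genes of each list (number in brackets), of the day 2 array minus the day 1 mean in log2 units (x axis), with 1 symbol for each day 2 array and all 12205 genes in bold. Only lists with 8 or more measured genes are shown. Replicate 1 (triangles) spans −3.97 to 5.90, while replicate 3 (squares) stays between −0.48 and 1.18; for ribosome biogenesis the 3 medians lie between −0.68 and −0.43.

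Leaving out day 2 replicate 1 brought other genes forward. The genes with the remaining day 2 arrays wholly above day 1 numbered 865 (7.09%) in place of 305, and those wholly below 1605 (13.2%) in place of 1207. Of the added genes on the higher side, 560 in all, replicate 1 lay below every day 1 array in 459. Pnn, a splicing-associated protein of the nucleus, was at 9.23, 9.36 and 9.41 on day 1 and at 8.84, 10.57 and 10.39 on day 2, a change of 0.60 ± 0.38 (adjusted p = 0.481) and of 1.15 ± 0.14 (0.058, limma) without replicate 1. Ormdl1, a regulator of sphingolipid synthesis, was at 8.15, 7.95 and 8.22 and then at 5.06, 9.68 and 9.45. Usp33, a deubiquitinating enzyme, was at 7.84, 8.15 and 8.22 and then at 2.69, 9.59 and 9.04. Of the 560, 290 (51.8%) had all day 0 arrays above every day 1 array, against 21.3% of all genes, again a comparison with the same day 1 arrays. Pnn, Ormdl1 and Usp33 were named after their values were seen, and for each the day 0 arrays lay above the day 1 arrays: 10.27 to 10.55 for Pnn, 9.47 to 9.80 for Ormdl1 and 9.06 to 9.59 for Usp33.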

How the data were processed

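RNA of 13 cultures was measured on Affymetrix mouse arrays. Values of 2.28 to 15.7 show that the deposited table is in log2 units; per the submitters' processing notes RMA and GCRMA were used, with no version and no word on which gave these values. The table was used as deposited. Of 45101 probe sets, 64 were controls, 34945 had 1 symbol in the platform annotation, 932 had several and 9160 had none; 34884 of those with 1 symbol matched RefSeq. Probe sets above 2.38 (the pooled median) in at least 2 arrays entered, and each gene took its single-symbol probe set with the highest mean, giving 12205 genes, 5467 of them with several. Limma 3.58.1 in R 4.3.3 fitted 1 mean per group over all 13 arrays. The script was tested on simulated data with the same spread in every group, taken without day 2 replicate 1. In the real arrays day 2 spread more than day 1, so this tests the code and not the calls made here. P-values were adjusted by Benjamini-Hochberg across all genes, and ± is a standard error. The array number limits precision.

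Members, gene lists and alternatives were chosen with earlier results of these data known. Named genes were those called, those with the smallest p, up to 4 per list by size of change, a preset group of niche, signalling, collagen and blood genes, and the genes over 2-fold on each day 2 array; others, among them the genes named in a list as lying wholly on one side or as overlapping, were chosen after their values were seen. Lists are described by counts and medians with no test. Alternatives covered filters, scaling, probe sets, variance models, array weights, the replicate number as a block, and leaving out arrays. Replicate numbers were not taken as pairs. Figures were drawn with Python 3.11.15.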

Additional observations from a re-analysis of the deposited data

How the results depend on the processing

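With all 13 arrays, the count of 1 called gene (0 higher, 1 lower) became 0 with only the 6 co-culture arrays of days 1 and 2, no filter, the stricter filter (above 5 in at least 3 arrays), quantile scaling or centring, and 1272 (258 higher, 1014 lower) with array weights, which gave day 2 replicates 1 and 3 weights of 0.039 and 0.16. Leaving out a day 1 or day 2 array gave 0 to 1887 genes (0 to 288 higher, 0 to 1599 lower), the highest without day 2 replicate 3; without replicate 1 the called gene was 1 higher and 0 lower. From the fit without day 2 replicate 1 (1 gene: 1 higher, 0 lower), settings added after the data were seen gave 0 (0 higher) with only its 5 arrays of days 1 and 2, 3 (3 higher) with no filter, 3 (3 higher) after quantile scaling, 4 (3 higher, 1 lower) after centring, 3 (2 higher, 1 lower) with the mean of probe sets and the same with trend and robust variances, and 12 (10 higher, 2 lower) without day 3 replicate 2. Leaving out a further day 1 or day 2 array there gave 1 to 2208 genes (1 to 662 higher, 0 to 1546 lower), and where this left 1 array of day 2, that array was assumed to vary like the other groups. The cause of these shifts was not tested. With the replicate block the counts were 0 with all 13 arrays (0 higher, 0 lower) and 1 without day 2 replicate 1 (1 higher, 0 lower). Same-numbered arrays of the 2 days correlated at 0.0025, 0.15 and 0.22 in their deviations from the group means, and day 2 replicate 1 correlated better with day 1 replicate 2 (0.058), so the numbers were not taken to pair samples. No gene named here reversed its sign as a called value under any setting run.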

Other observations

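Of 29 measured interferon-response genes, 4 had day 2 wholly above day 1 (Gbp3, Psmb8, Ifih1 and Ifi47), or 13.8% against 2.5% of all genes. Among the 29, 2 passed the filter only through day 2. Bst2, Tap1 and Ifitm3 lay wholly below (10.3%, near the 9.89% of all genes), and none of the 29 was called by limma in either fit. Gbp3, a guanylate-binding protein, stood at 9.20, 8.67 and 7.36 on day 1 and at 10.97, 10.96 and 10.03 on day 2, which made it the member of the higher set with the closest day 2 arrays; its change was 2.24 with all 13 arrays and 2.09 without day 2 replicate 1 (adjusted p = 0.378 and 0.548). Its day 0 arrays, at 9.73, 11.66 and 10.23, lay at the level of day 2. Bst2, the tetherin gene, stood at 9.65, 8.89 and 8.66 on day 1 and at 4.21, 3.60 and 8.31 on day 2.

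Of 36 measured lysosomal genes, 2 had day 2 wholly above day 1 (5.56%, against 2.5% of all genes) and 4 wholly below (11.1%, near the 9.89% of all genes). Ctss and Ctsz, cathepsins abundant in myeloid cells, stood wholly higher on day 2, at 11.72, 8.69 and 9.33 for Ctss against 5.03, 7.61 and 6.34, and at 12.81, 8.77 and 7.62 for Ctsz against 4.52, 7.03 and 6.24. Ctsa, Mcoln1, Lamp1 and Npc2 stood wholly lower, Ctsa at 5.69, 5.56 and 9.73 against 10.62, 10.23 and 10.14. The rest overlapped, and limma called none of the 36 in either fit.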
